A study of Mus musculus with 25 samples.

Results

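The protein part of the cytosolic ribosome is encoded by a family of genes named *Rpl* (large subunit) and *Rps* (small subunit). Here these genes were followed in the *soleus* muscle of mice with and without the DNA methyltransferase DNMT3A, at rest and after running. Members were the rows of the count table whose symbol is *Rpl* or *Rps*, a number and at most 1 letter, together with the stalk genes *Rplp0*, *Rplp1* and *Rplp2* and with *Rpsa*, which gave 83 of 52636 rows (48 of the large subunit, 3 of the stalk and 32 of the small subunit). Pseudogenes, the *Rps6k* kinases and ribosomal proteins with other names, such as *Fau*, were not members. The mice were C57BL/6 of 12 weeks, and all carried floxed *Dnmt3a* alleles, with LoxP sites around exon 19. WT mice were *Dnmt3a* flox/flox without Cre. mD3AKO mice had the same alleles and a mCK-Cre transgene, which is driven by the muscle creatine kinase promoter late in differentiation and is also active in heart, and satellite cells and the non-muscle cells of the tissue are likely to keep *Dnmt3a*. Rested mice (5 WT and 7 mD3AKO) spent 30 minutes in a sham treadmill arena. Exercised mice (7 WT and 6 mD3AKO) ran for 30 minutes at 16 m/min on a 5% incline and were killed 60 minutes later. Among the 25 mice, 13 were male and 12 female.

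Each ribosome holds 1 copy of almost every ribosomal protein, and the stalk proteins are the main exception. The ribosomal protein genes are therefore usually transcribed together, strongly and in every cell. Their mRNAs begin with a cytosine and a run of pyrimidines, the 5′ terminal oligopyrimidine (TOP) sequence, through which mTORC1 and LARP1 set how well they are translated. In muscle, translation of such mRNAs is a known target of feeding, contraction and growth signals, which act on ribosome loading rather than on the RNA level that was measured here. Striated muscle also has *Rpl3l*, a copy of *Rpl3* that takes its place in the ribosome of adult fibers.

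The starts of a few members show the sequence for which the family is known, together with members that lack it at the annotated start. RefSeq promoter windows (build GRCm38.p6, 250 bases before to 50 bases after the annotated start) matched 61 of the 83 members, with 73 windows. The 30 bases below run 5′ to 3′ on the transcribed strand, with 15 bases on each side of the annotated start. Capitals mark a C within 10 bases of that start together with the run of at least 4 bases, each C or T, that follows it. *Rps6* and *Rplp2* are a signalling target and a stalk gene, *Rpl18* and *Rpl15* are among the members of lowest p in the exercise comparison, *Rpl35* has one of the longest runs, *Rpl3l* is the muscle copy and *Rpl10* is a member without such a run.
Rps6, chr4:86857353-86857382, minus strand: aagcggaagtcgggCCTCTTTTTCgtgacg
Rplp2, chr7:141447636-141447665, plus strand: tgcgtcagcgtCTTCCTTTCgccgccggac
Rpl18, chr7:45718056-45718085, plus strand: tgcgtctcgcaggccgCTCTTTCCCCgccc
Rpl15, chr14:18270972-18271001, minus strand: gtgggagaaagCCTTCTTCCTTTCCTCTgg
Rpl35, chr2:39005117-39005146, minus strand: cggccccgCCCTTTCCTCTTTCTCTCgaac
Rpl3l, chr17:24727811-24727840, plus strand: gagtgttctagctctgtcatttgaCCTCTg
Rpl10, chrX:74270801-74270830, plus strand: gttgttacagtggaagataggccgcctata
In *Rps6*, *Rplp2*, *Rpl18*, *Rpl15* and *Rpl35* the run lies across or within a few bases of the annotated start. In *Rpl3l* the bases at the start are not such a run, and a short one begins at position 10 after it. The members shown were picked with their starts known, and of the 61 matched members 39 had such a start in at least 1 window. *Rpl11*, *Rpl13*, *Rpl23*, *Rpl24*, *Rpl26* and *Rpl27* were among those that, like *Rpl10*, had none. Over all member windows, 41 of 73 (56.2%) held such a start on the transcribed strand and 14 (19.2%) on the other strand, against 29.7% and 33.8% of the 32851 windows of all genes. The letters CCGGAAG, on either strand, stood in 26 of 73 member windows (35.6%) and in 8.86% of all windows. These are counts of letters near an annotated start, not of mapped mRNA ends.

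Between 22671457 and 37431801 reads were counted on genes per library. *Dnmt3a* was at 34.5 to 53.9 CPM (counts scaled to a common library size with edgeR's TMM factors) in the 13 mD3AKO mice and at 93.4 to 130.5 CPM in the 12 WT mice, so that the labels and the floxed gene go together in every library. The muscle genes *Acta1*, *Ckm*, *Des* and *Mb* summed to 40394 to 55982 CPM. The library of mouse 15, a rested mD3AKO male, stood apart. Ribosomal RNA rows, those of mitochondrial ribosomal RNA included, took 39.5% of its counts against 7.76% to 13.0% in the other 24. The members took 0.572% of its counts. In the other libraries they took 0.808% to 1.16%. As group means the share was 0.969% ± 0.0864 (SD, n = 5) in rested WT, 0.930% ± 0.159 (n = 7) in rested mD3AKO, or 0.989% ± 0.0198 (n = 6) without mouse 15, 0.999% ± 0.0854 (n = 7) in exercised WT and 0.942% ± 0.0908 (n = 6) in exercised mD3AKO mice. With all mice included the means differed by less than the SD of any group. Without mouse 15 the rested mD3AKO mean lay above the exercised mD3AKO mean by more than its own SD and by less than that of the exercised mice. A library is 1 mouse, and in whole muscle fewer cells of a type cannot be told apart from less RNA per cell. The mouse numbers in the labels fall into runs of 1 sex, 1 to 6 female, 7 to 19 male and 20 to 25 female.

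Of the 83 members, 79 passed the filter on low counts, and their levels per length covered a wide range. In CPM per kb of merged exons (the length column of the count table), the highest means over 25 mice were those of *Rplp1* (481), a stalk protein, *Rpl8* (341), *Rplp0* (323), the stalk base, and *Rps15* (289). The lowest were those of *Rps4l* (2.92), an autosomal copy of *Rps4x*, *Rpl13a* (3.21), *Rps28* (8.64) and *Rpl24* (9.40). The median was 47.1. Divided by the length of the principal coding transcript (by APPRIS) instead, *Rplp1* and *Rps4l* stayed first and last, and *Rps28* moved to 32.3 CPM per kb.

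**Figure D1:**
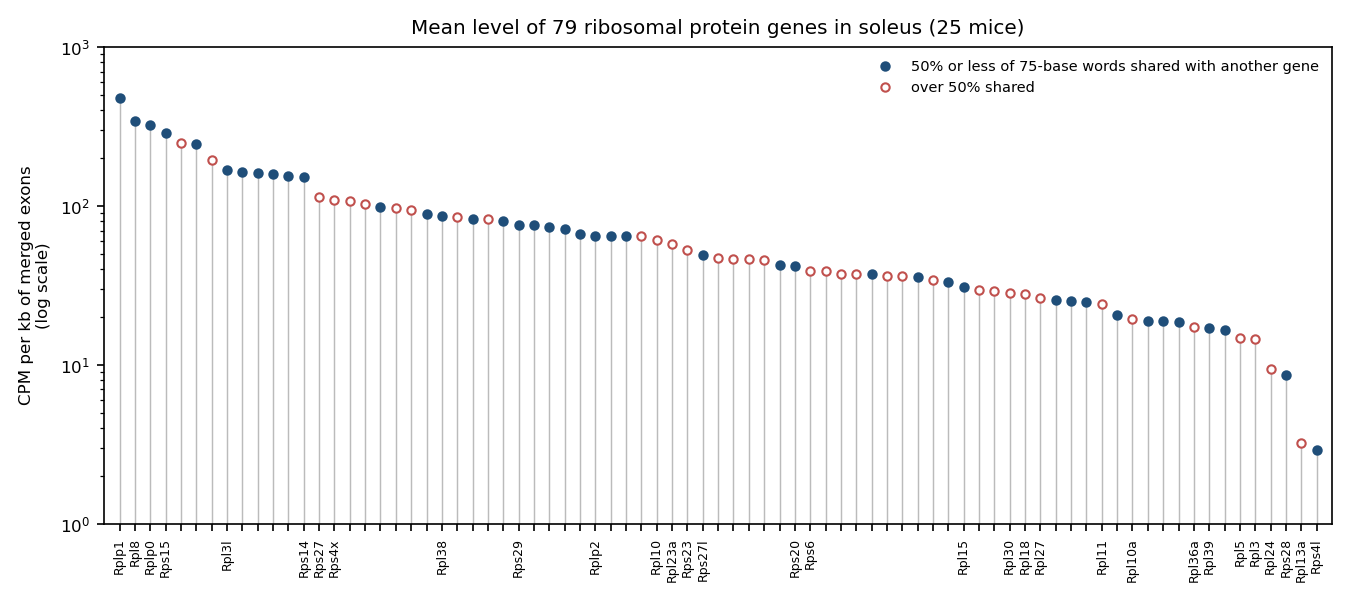
Mean level of each of the 79 members that passed the filter over 25 mice, in CPM per kb of merged exons on a log axis, ordered from *Rplp1* (481) to *Rps4l* (2.92), with names for the members chosen by the naming rule. Open red circles are the 37 members with over 50% of the 75-base words of their principal transcript also found in another gene, and they lie along the whole range.

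Reads of these genes are hard to assign. The genome holds many processed copies of these genes, and 37 of the 79 members shared over 50% of the 75-base words of their transcript with another gene, mostly pseudogenes, such as *Rps27* (98.5%), *Rpl5* (92.5%), *Rpl10* (91.9%) and *Rpl3* (83.2%). *Rpl3l* shared none. Across the 79 genes the level per kb and the shared percentage had a Spearman correlation of -0.22, given as a description across genes that share all libraries. Other annotated genes also overlap members. *Gm28037* covers 47.0% of the exonic bases of *Rpl24* on its own strand, and *Gm45713* and small RNAs cover 35.4% of those of *Rpl13a*. For the low levels of *Rpl24* and *Rpl13a*, the part of these overlaps was not tested. On the opposite strand *Tlcd1* covers 59.7% of *Rpl23a*, and whether counting used the strand is not given in the sources used here.

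The 4 members that failed the filter are copies with few reads. *Rpl10l*, a testis copy of *Rpl10*, had 0 counts in all 25 libraries, while *Rpl10* had 1499 to 5112. *Rpl39l*, the testis copy of *Rpl39*, had 1 to 29 counts per library and 120 in all. *Rpl6l* had 0 to 12 and *Rpl32l* 2 to 9. Each lay under 1 CPM, at most 0.150 CPM as a mean. *Rps27l*, the copy of *Rps27*, was in contrast well detected, at 49.2 CPM per kb of merged exons against 113 for *Rps27*. Per kb of the principal transcript the values were 80.5 and 342. *Rps27* shares 98.5% of its words with other genes and *Rps27l* 12%, so the comparison depends on how reads of shared sequence were counted.

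*Rpl3l* (chr17:24727820-24736143, plus strand) had more counts than *Rpl3* in every mouse, a comparison that depends on how reads of shared sequence were counted. In CPM it was at 258.3, 278.2, 287.2, 305.8 and 237.2 in mice 1, 11, 13, 14 and 20 of the rested WT group. Its lowest, median and highest values were 219.6, 254.6 and 356.0 in rested mD3AKO, 243.4, 266.2 and 343.7 in exercised WT and 233.8, 283.6 and 318.2 in exercised mD3AKO mice. All 4 groups overlapped. *Rpl3* (chr15:80077794-80091868, minus strand) was at 54.1, 39.4, 41.2, 38.9 and 55.7 CPM in the same 5 WT mice. It ranged from 29.4 to 55.3 in rested mD3AKO (median 40.3), from 36.4 to 58.7 in exercised WT (median 42.4) and from 32.3 to 65.9 in exercised mD3AKO mice (median 45.7). Per kb of merged exons, the mean of *Rpl3l* was 11.4 times that of *Rpl3*, and per kb of the principal transcript 5.92 times. *Rpl3* shares words with 8 other genes, all pseudogenes, and *Rpl3l* with none. How reads that match several genes were counted is not given in the sources used here. Per kb of principal-transcript words found in no other gene, *Rpl3l* was at 211 and *Rpl3* at 213 CPM, a ratio of 0.992. That only approximates a count without reads of shared words, since reads were paired and counts cover all merged exons. Which of the pair is the more abundant RNA therefore cannot be told from these counts. The log2 ratio per kb of merged exons was 3.51 ± 0.389 (SD, n = 5) in rested WT, 3.57 ± 0.560 (n = 7) in rested mD3AKO, 3.49 ± 0.402 (n = 7) in exercised WT and 3.55 ± 0.428 (n = 6) in exercised mD3AKO mice, means that lay closer together than the mice of any group. Mouse 15 had the highest ratio of all (4.52), and without it the rested mD3AKO mean was 3.42.

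The first comparison asked what an acute bout of running did to these RNAs. No member passed the test. Averaged over the genotypes, 0 of 79 members passed an adjusted p of 0.05 with edgeR's quasi-likelihood F test, while 10.4% of the 16340 tested genes were called. At an unadjusted p of 0.05 there were also 0 members (21.3% of all genes), and DESeq2 called 0 (11.8% of all genes). The lowest adjusted p of a member was 0.28. Nearly all members were nonetheless slightly to the same side of 0. Their log2 fold changes, exercised minus rested, ran from -0.05 to 0.13 with a median of 0.05, or 3.27%, and 76 of 79 were above 0, against 49.7% of all genes, whose median was -0.00088. The median of the members was lower in each of the 10 alternatives, from 0.02 in females alone to 0.04, and ran from 0.02 without mouse 19 to 0.08 without mouse 1. In females alone 54 of 79 were above 0, and in males alone 63 of 80. The members moved together from mouse to mouse, as described further on, so these 76 are not independent observations. The data also bound the change. The 95% interval of 75 of 79 members lay within 0.25 of 0 on the log2 scale, compared with 41.6% of all genes, a limit chosen after the data were seen. The median standard error was 0.052 for members and 0.090 for all genes. Members and all genes were not matched for level, and counting error is larger at low counts.

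The 4 members of lowest p on the higher side were *Rpl23a*, *Rpl18*, *Rps27* and *Rpl15*. *Rpl23a* (chr11:78180932-78183584), which sits at the exit of the peptide tunnel, was at 56.0, 42.6, 43.6, 46.3 and 48.5 CPM in the 5 rested WT mice. Its median was 46.5 in rested mD3AKO (43.7 to 49.9), 53.0 in exercised WT (40.9 to 56.6) and 48.5 in exercised mD3AKO mice (45.5 to 53.6). The groups overlapped, and the log2 fold change was 0.10 ± 0.05 (SE). *Rpl18* was at 0.09 ± 0.05, *Rps27* at 0.07 ± 0.05 and *Rpl15* at 0.07 ± 0.04. In females alone the values were 0.03 for *Rpl23a*, 0.01 for *Rpl18*, 0.05 for *Rps27* and 0.02 for *Rpl15*, and with 1 mouse left out *Rpl18* ran from 0.05 to 0.11. Only *Rps29*, *Rpl36a* and *Rpl27* were on the lower side, at -0.05 ± 0.11, -0.03 ± 0.05 and -0.01 ± 0.07, and with 1 mouse left out at a time *Rpl36a* crossed 0 in 1 of 25 fits (0.0045 without mouse 1) and *Rpl27* in 6 (up to 0.016). *Rps6*, whose protein is phosphorylated downstream of mTORC1, was at 74.9, 53.2, 58.5, 54.3 and 59.5 CPM in the rested WT mice, and its medians were 59.1, 63.3 and 61.7 in rested mD3AKO, exercised WT and exercised mD3AKO mice. Mouse 1 at rest was as high as the highest exercised mice (74.1 and 74.2), and the log2 fold change of *Rps6* was 0.09 ± 0.06. The stalk genes *Rplp0*, *Rplp1* and *Rplp2* were at 0.04, 0.05 and 0.04, and *Rpl5* and *Rpl11*, whose proteins bind the small RNA of the large subunit and restrain MDM2 when assembly fails, at 0.03 and 0.01. By subunit the medians were 0.04 for 44 large-subunit genes and 0.05 for 32 small-subunit genes.

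Within WT mice, 0 of 79 members were called after exercise by edgeR (3.59% of all genes), 0 at an unadjusted p of 0.05 (12.3%) and 0 by DESeq2 (4.55%). The median was 0.05, and 76 members were above 0 (50.6% of all genes). This median ran from 0.02 without mouse 4 to 0.11 without mouse 1, and it was -0.01 in females alone. The groups also differed in sex, with 2 females and 3 males in rested and 4 females and 3 males in exercised WT mice. Within mD3AKO mice, 0 were called by edgeR (6.02% of all genes), 1 at an unadjusted p of 0.05 (17.6%) and 0 by DESeq2 (7.41%). The median was 0.04, and 64 members were above 0 (48.3% of all genes). Without mouse 19 it was at -0.0021 and without mouse 17 at 0.06. The 1 member was *Rpl24* (chr16:55966275-55971435), a protein at the bridge between the subunits. It was at 7.30 to 11.0 CPM (median 8.43) in rested and 7.24 to 13.2 CPM (median 11.2) in exercised mD3AKO mice, a log2 fold change of 0.30 ± 0.14 whose adjusted p was 0.25.

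**Figure D2:**
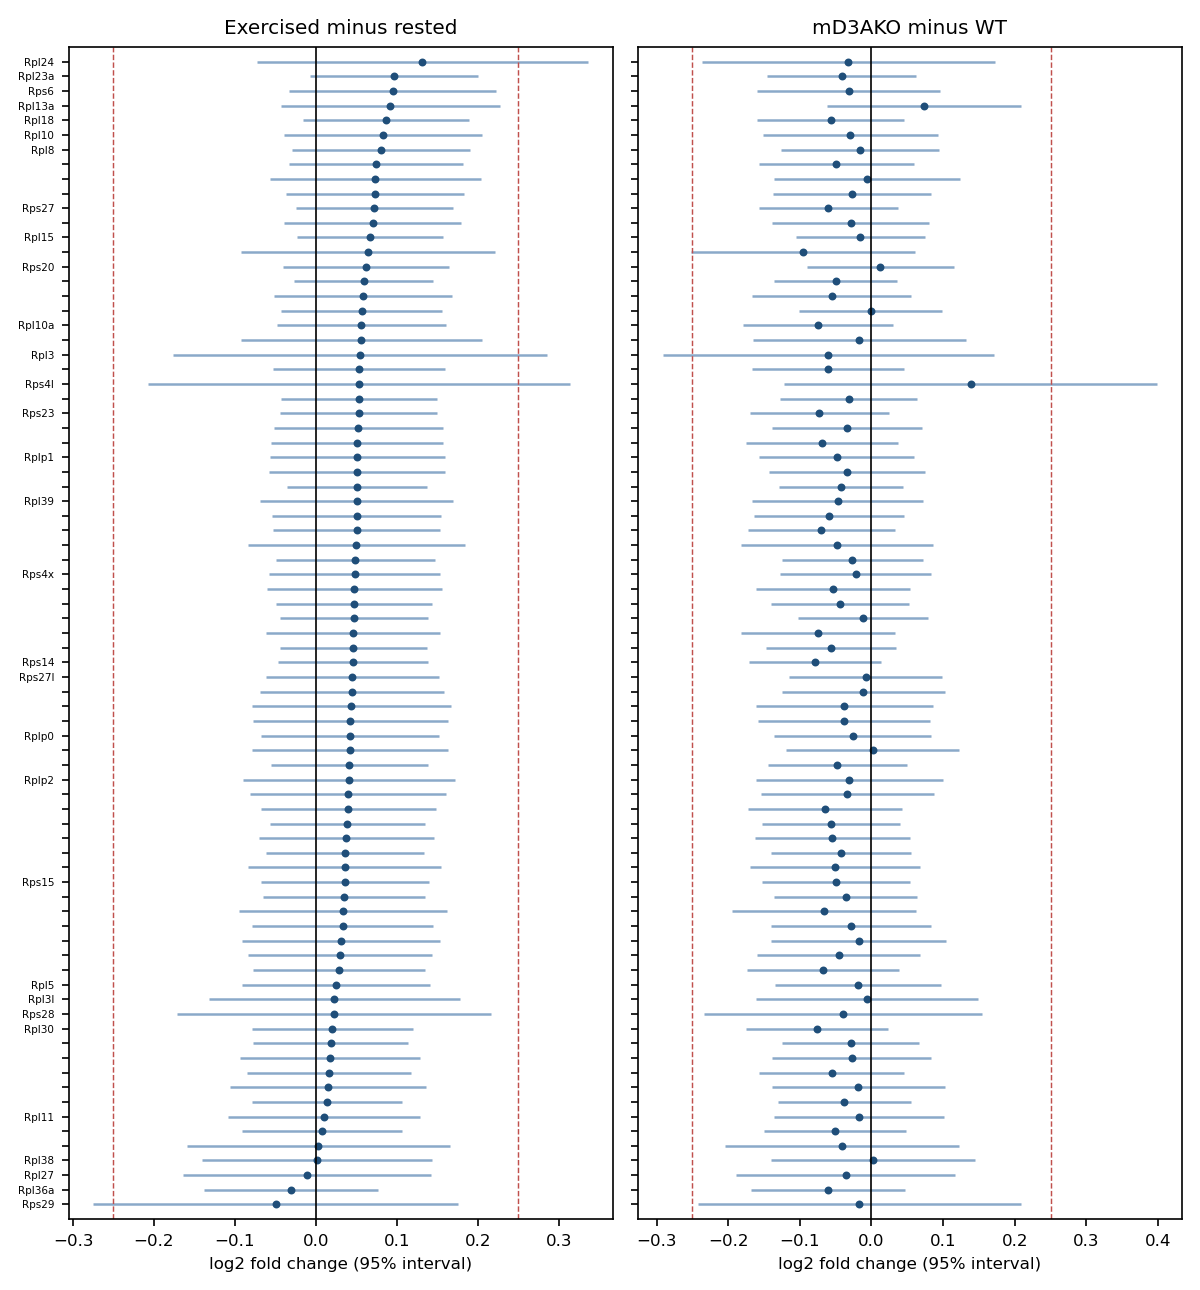
Log2 fold change of each of the 79 members with its 95% interval, for exercised minus rested mice (left) and mD3AKO minus WT mice (right), averaged over the other factor and ordered by the left panel, with names for the members chosen by the naming rule. The intervals of 75 members on the left and 76 on the right lie between the dashed lines at -0.25 and 0.25, most points lie right of 0 on the left and left of 0 on the right, and 0 of 79 passed an adjusted p of 0.05 in either panel.

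The second comparison asked whether loss of DNMT3A from muscle fibers changed the members. No member was called. Averaged over rest and exercise, 0 of 79 members were called by edgeR (0.269% of all genes), 0 at an unadjusted p of 0.05 (6.23%) and 0 by DESeq2 (0.496%). Log2 fold changes, mD3AKO minus WT, ran from -0.10 to 0.14 with a median of -0.04, and only *Rps4l*, *Rpl13a*, *Rps20*, *Rpl38* and *Rpl31* were above 0, against 53.4% of all genes. Of these 5, *Rps20* and *Rpl38* lay below 0 with total counts as library sizes, and *Rpl38* lay below 0 in 16 and *Rps20* in 2 of the 25 fits without 1 mouse. In 76 of 79 members the 95% interval lay within 0.25 of 0, compared with 48.3% of all genes. With 1 mouse left out at a time the median ran from -0.06 to -0.01. The direction of the median was not that of both sexes, however. It was -0.10 in females alone, with 2 of 79 above 0, and 0.01 in males alone, with 48 of 80 above 0. That difference was not tested.

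On the lower side the members of lowest p were *Rps14* at -0.08 ± 0.04, *Rpl30* at -0.08 ± 0.05, *Rps23*, a protein of the decoding centre, at -0.07 ± 0.05 and *Rpl10a* at -0.07 ± 0.05. *Rpl10a* (chr17:28328471-28331032), a protein of the large-subunit stalk opposite to that of *Rplp0*, was at 50.9, 44.3, 46.6, 45.7 and 42.3 CPM in the rested WT mice. It ranged from 40.1 to 48.2 in rested mD3AKO (median 43.6), from 43.1 to 54.2 in exercised WT (median 47.4) and from 41.1 to 55.6 in exercised mD3AKO mice (median 43.5), so that all groups overlapped. On the higher side were *Rps4l* at 0.14 ± 0.13, *Rpl13a*, whose protein is released from the ribosome in the interferon response, at 0.07 ± 0.07, *Rps20* at 0.01 ± 0.05 and *Rpl38*, known for a role in the translation of *Hox* mRNAs, at 0.0026 ± 0.069. *Rpl3l* was at -0.0059 ± 0.075 and *Rpl3* at -0.06 ± 0.11.

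At rest alone 0 of 79 members were called between genotypes by edgeR (0.0918% of all genes), 1 at an unadjusted p of 0.05 (3.65%) and 0 by DESeq2 (0.141%). After exercise 0 were called by edgeR (0.11% of all genes), 0 at an unadjusted p of 0.05 (5.51%) and 0 by DESeq2 (0.171%). For the interaction, the difference between the genotypes in the response to exercise, 0 of 79 members and 0% of all genes were called by edgeR, 1 member passed an unadjusted p of 0.05 (2.47% of all genes) and DESeq2 called 0 (0%). That member and the one at rest were both *Rps4l* (chr6:148354656-148355598), the lowest of the tested members, with 39 to 155 counts per library. *Rps4l* was at 2.33, 1.98, 2.45, 2.04 and 2.62 CPM in the rested WT mice, at 2.31 to 4.04 (median 2.82) in rested mD3AKO, 2.04 to 3.70 (median 3.09) in exercised WT and 1.67 to 3.73 (median 2.47) in exercised mD3AKO mice. The rested WT mice were low and close together, and the other groups overlapped with them. Its log2 fold change was 0.43 ± 0.18 between genotypes at rest and -0.57 ± 0.25 for the interaction, both with adjusted p = 1.00 by edgeR. These values were 0.24 and -0.35 in females alone and 0.56 and -0.76 in males alone. The intervals of the interaction were wider than those of the main effects, with 39 of 79 members within 0.25 of 0 (13.9% of all genes).

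The members varied together from mouse to mouse. After subtraction of group means, the log2 CPM of 2 members had a median correlation of 0.70 over 25 mice (0.72 without mouse 15), and 96.4% of pairs were above 0. This is a description of points that share library and scaling. A few members did not follow the others, by the median of their correlations with the rest: *Rpl3l* (-0.11), *Rps4l* (-0.01), *Rpl24* (0.20), *Rpl39* (0.33) and *Rpl3* (0.34), while *Rpl17* was among those that followed most closely (0.82). The spread was small. The median SD between mice of a group was 0.13 on the log2 scale for members and 0.22 for all tested genes, which were not matched to the members for level. As a summary of each mouse, the median deviation of the 79 members from their own means was 0.22 in mouse 1, a rested WT female, with 77 of 79 members above their mean, and 0.22 and 0.17 in mice 5 and 4, both exercised WT females, also with 77 of 79. It was 0.16 in mouse 19, an exercised mD3AKO male, with 78 of 79 above, and 0.12 in mouse 2, a rested mD3AKO female, with 72 of 79. At the other end it was -0.17 in mouse 21, a rested mD3AKO female, with 4 of 79 above, and -0.14 in mouse 17, an exercised mD3AKO male, with 6 of 79. The rested mice ran from -0.17 to 0.22 with a median of -0.04 (3 of 12 above 0) and the exercised mice from -0.14 to 0.22 with a median of 0.03 (8 of 13 above 0), and the ranges overlapped over most of their length. By mouse number the deviation was above 0 in 6 of 6 females of the first run (1 to 6, median 0.14), in 4 of 13 males (7 to 19, median -0.04) and in 1 of 6 females of the last run (20 to 25, median -0.02). Mice 1, 4 and 5 are all of the first run. With the number runs as a term of the fit, the median log2 fold change of the members for exercise was 0.03.

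**Figure D3:**
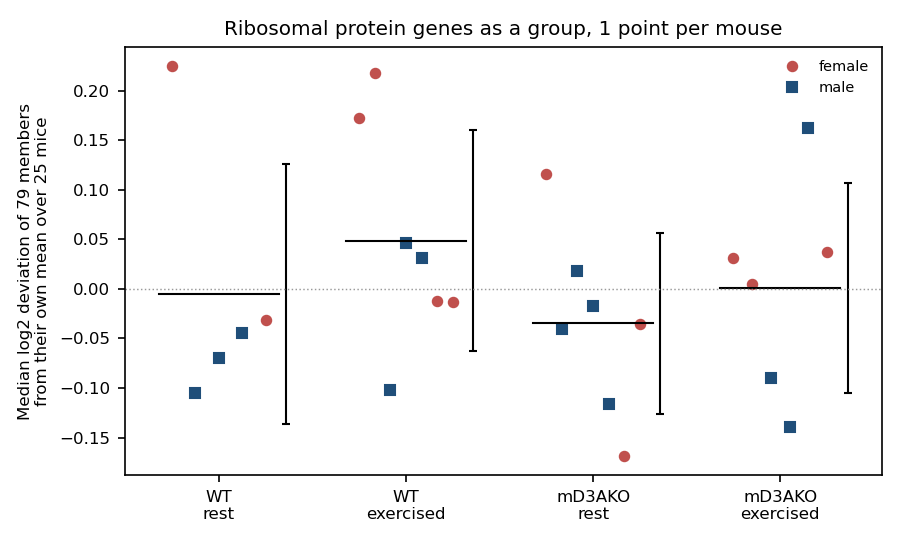
Median log2 deviation of the 79 members from their own means over 25 mice, 1 point per mouse, by group, with the group mean (horizontal line) and SD (bar). Circles are females and squares males; the 4 groups overlap over most of their range, and the highest values are those of females in rested and exercised WT mice.

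Sex was tested after the data were seen, as an additive term beside the 4 groups. Of 79 members, 5 passed an adjusted p of 0.05 with edgeR (10% of all genes), and 22 an unadjusted p of 0.05 (25.1% of all genes). Most members, 70 of 79, were lower in males, with a median log2 fold change of -0.08 against -0.02 for all genes. That direction depended on the run of females. With the females of the last run (mice 7 to 25 alone), the median was 0.0077 (all genes -0.03). There 45 of 79 members were higher in males. With the females of the first run (mice 1 to 19 alone), the median was -0.17 (all genes 0.0075), and 4 of 79 were higher. The count that passed the adjusted p was not stable, at 9 without mouse 21, 16 without mouse 19 and 3 to 5 in the other fits without 1 mouse. Shares of all genes in these fits are not given here, so the counts cannot be set against them. Of the 5, 4 were lower in males (4.11% of all genes), *Rps4x*, *Rpl10* and *Rpl23a* among them, and *Rpl3l* was higher (5.92% of all genes). *Rps4x* (chrX:102184941-102189394) ran from 150 to 183 CPM (median 168) in 13 males and from 174 to 213 (median 186) in 12 females, a log2 fold change, male minus female, of -0.17 ± 0.04 with an adjusted p of 0.0061. *Rpl10* (chrX:74270812-74273135), the protein of the last step of large-subunit maturation, ran from 105 to 137 CPM in males and from 116 to 154 in females, at -0.18 ± 0.05 with an adjusted p of 0.018. The ranges of both overlapped between the sexes. Of the other X-linked members, *Rpl36a* was at -0.13 ± 0.05 (adjusted p = 0.080) and *Rpl39* at -0.03 ± 0.06 (adjusted p = 0.80). *Rpl3l* ran from 225 to 356 CPM (median 295) in males and from 220 to 284 (median 252) in females, at 0.24 ± 0.06 with an adjusted p of 0.0092, and *Rpl3* lay the other way at -0.26 ± 0.10 without passing (adjusted p = 0.096). *Rpl23a* was at -0.14 ± 0.04 with an adjusted p of 0.040.

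*Rps4x*, *Rpl10* and *Rpl3l* were called in each of the 25 fits that left out 1 mouse and *Rpl23a* in 5 of them. Without mouse 15 the first 3 were called. Without the filter on low counts *Rpl3l* alone was called, and *Rps4x* (adjusted p = 0.051) and *Rpl10* (adjusted p = 0.070) were not. With total counts as library sizes *Rpl3l* was at 0.12 (adjusted p = 0.17) and not called. Each run of mouse numbers holds 1 sex, so that sex and number run cannot be told apart, and the females of the first and the last run were not alike. Whether the mice of a run were handled together is not given in the sources used here. *Rps4x* was at 198 ± 11.1 CPM (SD, n = 6) in females 1 to 6 and at 180 ± 4.83 (n = 6) in females 20 to 25, and *Rpl10* at 144 ± 8.58 and 125 ± 5.11. Against females 20 to 25 alone, *Rpl3l* kept its value (0.25, adjusted p = 0.043), but *Rps4x* (-0.10, adjusted p = 0.11) and *Rpl10* (-0.08, adjusted p = 0.29) were not called. Against females 1 to 6 alone, 17 members were called, all lower in males, *Rps4x* and *Rpl10* among them, and *Rpl3l* was at 0.23 (adjusted p = 0.11). The share of all genes called in that fit is not given here, so the 17 cannot be set against it. *Rpl3l* was at 255 ± 15.5 CPM in females 1 to 6 and at 249 ± 21.7 CPM in females 20 to 25. The slow fiber genes *Myh7*, *Tnnt1*, *Tnni1*, *Atp2a2* and *Myl2* also differed in sum between the sexes, from 26908 to 43543 CPM in females and from 21923 to 28609 CPM in males. Fast fiber markers had a median sum of 22506 CPM in females and 26471 CPM in males. Ribosomal RNA rows, mitochondrial ones included, took a median of 8.80% of counts (7.76% to 11.0%) in females and 10.6% (9.46% to 39.5%) in males. The TMM factors had medians of 1.06 and 0.98. The part of these measures in the sex differences was not tested.

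**Figure D4:**
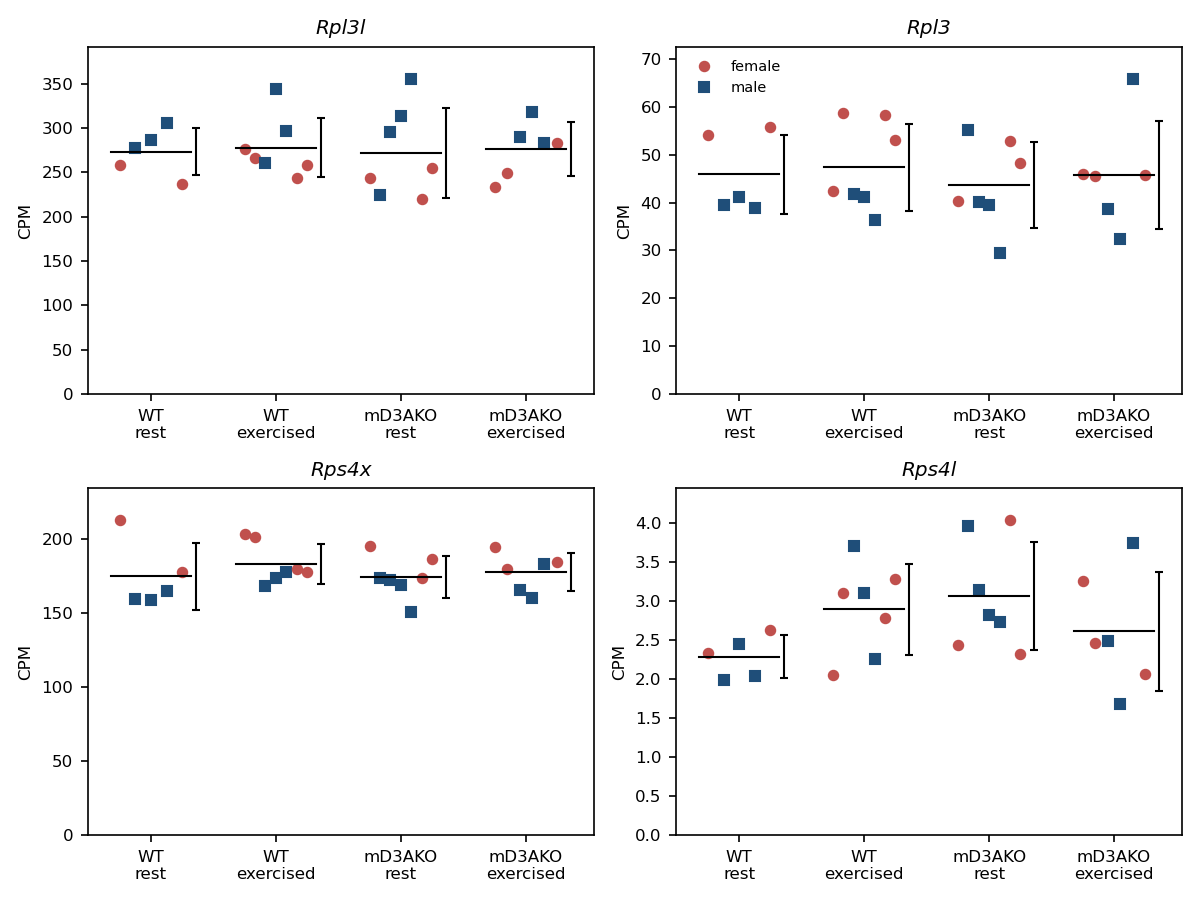
CPM of *Rpl3l*, *Rpl3*, *Rps4x* and *Rps4l* in each mouse by group, with the group mean (horizontal line) and SD (bar), and axes that start at 0. Circles are females and squares males; groups overlap for all 4 genes, male points lie high for *Rpl3l* and low for *Rps4x*, and *Rps4l* stays near 2 to 4 CPM.

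The genes that build ribosomes and translate TOP mRNAs were followed in the same fit, on lists chosen by function. Earlier results of these data were known when the lists were chosen. Values are exercised minus rested, averaged over the genotypes. Of 33 ribosome assembly factors 5 rose and 0 fell (median 0.08), beside 5.7% of all genes that rose and 4.69% that fell. *Gnl3*, a nucleolar GTPase known as nucleostemin, rose by 0.34 ± 0.07 (edgeR adjusted p = 0.0014), and *Nolc1* and *Nop58*, both of the small nucleolar RNA machinery, rose by 0.28 ± 0.05 and 0.27 ± 0.06. *Nolc1* ran from 24.9 to 31.8 CPM in rested and from 29.4 to 37.1 CPM in exercised mice, and the ranges overlapped. *Sbds* (0.15 ± 0.05) and *Gnl2* (0.13 ± 0.04), which act on the large subunit, were also called, and lost the call in 18 and 12 of 25 fits without 1 mouse. Of 15 genes of the RNA polymerase I machinery, which transcribes ribosomal RNA, 1 rose (5.7% of all genes), *Taf1a* (0.33 ± 0.07). Of 9 small nucleolar RNA hosts, non-coding TOP RNAs, 2 rose (5.7% of all genes). They were *Zfas1* (0.26 ± 0.06) and *Snhg1* (0.32 ± 0.09), and *Snhg1* lost the call in 3 of 25 fits without 1 mouse. Of 7 ribosomal proteins outside the name pattern 1 rose (5.7% of all genes). It was *Rpl7l1*, an assembly relative of *Rpl7* (0.16 ± 0.04, from 34.6 to 41.8 CPM in rested and 38.9 to 47.9 CPM in exercised mice). Of 77 genes for mitochondrial ribosomal proteins 1 rose (5.7% of all genes), *Mrps6* (0.18 ± 0.05). Of 16 translation factors with TOP mRNAs 0 passed (10.4% of all genes), with a median of 0.05.

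Of 26 regulators of mTORC1 and of TOP mRNAs 3 rose (5.7% of all genes) and 1 fell (4.69% of all genes). *Ddit4*, the inhibitor of mTORC1 also called REDD1, ran from 4.08 to 17.6 CPM in 12 rested and from 35.4 to 69.1 CPM in 13 exercised mice. The ranges did not overlap, and it rose by 2.48 ± 0.18 on the log2 scale (edgeR adjusted p = 1.4e-10). *Rheb*, the GTPase that activates mTORC1, rose by 0.21 ± 0.04 and *Larp4*, a binder of poly(A) tails, by 0.18 ± 0.06, and *Larp4* lost the call in 7 of 25 fits without 1 mouse. *Ddit4l*, a relative of *Ddit4*, fell by 0.56 on the log2 scale, from 58.1 to 98.8 CPM in rested to 33.2 to 74.8 CPM in exercised mice. Between genotypes, 1 gene of these lists was called (0.269% of all genes), *Eef1a1*, an elongation factor with a TOP mRNA that muscle fibers are known to replace with *Eef1a2*. It was higher in mD3AKO mice by 0.38 ± 0.07 (edgeR adjusted p = 0.0042), at 417 to 563 CPM in 12 WT and 536 to 773 CPM in 13 mD3AKO mice, and the ranges overlapped. With total counts as library sizes, of the called genes of these lists only *Gnl3*, *Ddit4* and *Ddit4l* were called, and in females alone only *Ddit4*.

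**Figure D5:**
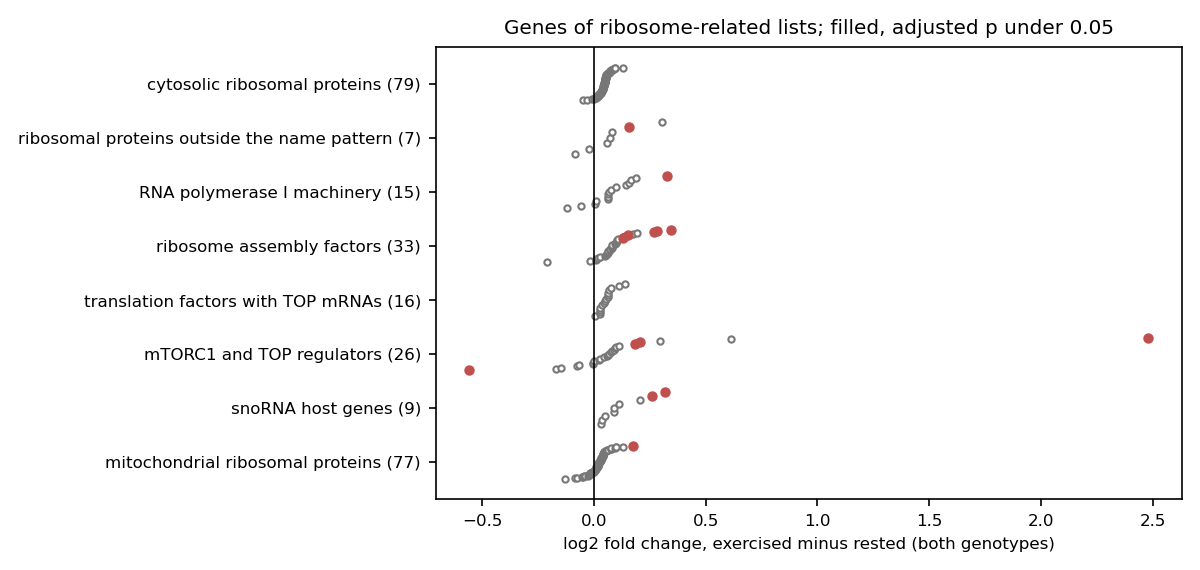
Log2 fold change of every tested gene of 8 lists, exercised minus rested averaged over genotypes, 1 circle per gene, with the number of tested genes in brackets and filled circles for an edgeR adjusted p under 0.05. The 79 cytosolic ribosomal proteins lie between -0.05 and 0.13 with no filled circle, and *Ddit4* lies at 2.48.

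Markers of other cell types moved with exercise in these same libraries. Of 5 endothelial genes 4 fell (4.69% of all genes), and their sum was at 323 to 443 CPM in rested and 277 to 362 CPM in exercised mice. Of 4 satellite cell genes 2 fell (4.69% of all genes), with a median sum of 42.2 CPM in rested and 35.8 CPM in exercised mice. Of 5 fibroblast genes 0 were called (10.4% of all genes), at a median of -0.37. None of the fiber and muscle identity markers was called for exercise. Between genotypes 1 marker was called (0.269% of all genes), the satellite cell gene *Pax7*. It was higher in mD3AKO mice by 0.48 ± 0.11 (edgeR adjusted p = 0.038), while the median of the 4 satellite cell genes was -0.03. The adipocyte genes *Adipoq* (-0.68 ± 0.44), *Cidec* (-0.66 ± 0.37), *Plin1* (-0.80 ± 0.47) and *Cfd* (-0.59 ± 0.38) lay lower in mD3AKO mice, and none was called. The part of the non-muscle markers in the exercise and genotype values above was not tested.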

How the data were processed

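RNA of the *soleus* of 25 mice was sequenced by the authors, 1 library per mouse, after depletion of ribosomal RNA, as stranded 75-bp paired ends. The deposited values are raw counts per gene and library, without a filter. The submitters' processing notes name STAR 2.5.3a, featureCounts 1.5.3, FastQC 0.11.5 and mm10, and the methods a GENCODE release 15 gene model. Whether counting used the strand, and how reads that match several genes were treated, is not given in the sources used here. The other deposited column used here is the merged exon length of each gene. Symbols were matched through GENCODE release 21 for 52403 of 52636 genes (233 had none). Other assays of the study were not analysed here, and 0 columns belonged to other samples. All 67 pairs of replicates differed by more than sampling noise.

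Counts were fitted with edgeR 4.0.16 (limma 3.58.1, R 4.3.3), glmQLFit and glmQLFTest, 1 mean per group, TMM scaling and filterByExpr (minimum count 10, minimum total 15), which left 16340 genes. Benjamini-Hochberg adjustment ran over all of them, and an adjusted p under 0.05 was called. Main effects averaged over the other factor. The script was tested on simulated counts. At 1 CPM a library of the median total (32189360) holds few reads, and counting error is largest for *Rps4l*. CPM used TMM library sizes, and log2 deviations a pseudocount of 0.1. P-values measure the spread between mice. Shared words and overlaps were counted in GENCODE release 21 with Python 3.11.15.

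The members and gene lists were chosen with earlier results of these data known. Named were the 4 members of lowest p per direction and main effect, the 4 highest and 4 lowest per kb, those that failed the filter, fixed copy pairs, stalk genes, *Rpl5*, *Rpl11* and *Rps6*, and called genes of the other lists. *Rpl24* and *Rps4l* in single contrasts, the members that followed least and most closely, and the sex comparison were named after their values were seen. Alternatives were DESeq2 1.42.0, its size factors, total counts as library sizes, no ribosomal RNA or mitochondrial rows, no filter, sex or number run as a term, 1 sex alone, and each mouse left out. Some members are left out of the named results and are not reported here by name.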

Additional observations from a re-analysis of the deposited data

Results flagged for a closer look

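Among 152 combinations of group and value that were screened (named members, the share of counts, the median deviation and the *Rpl3l* to *Rpl3* ratio), 13 held a mouse farther from the others of its group than Dixon's 95% limit allows. Chance gives about 1 in 20 for independent values. The 13 cannot be set against that rate, since members varied together and *Rpl10l*, at 0 in every mouse, could not be flagged. In rested WT mice, mouse 1 was above the other 4 for *Rps20* (201.5 CPM, next 165.2), *Rpl30* (105.8, next 86.2), *Rpl10* (152.5, next 121.8) and *Rpl5* (69.5, next 56.4), and for the median deviation of all members (0.22, next -0.03). In rested mD3AKO mice, mouse 2 was high for *Rps20* (195.2 CPM, next 169.1), mouse 7 for *Rpl6l* (0.306, next 0.176), and mouse 15 was low for the members' share of counts (0.572%, next 0.960%). In exercised WT mice, mouse 5 was high for *Rplp1* (295.1 CPM, next 258.0) and mouse 16 for *Rpl39l* (0.796, next 0.219). In exercised mD3AKO mice, mouse 17 was low for *Rps29* (34.3 CPM, next 50.6) and *Rpl38* (38.7, next 47.5), and mouse 10 was high for *Rpl39l* (0.319, next 0.136). *Rpl6l* and *Rpl39l* rest on few counts.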

How the results depend on the processing

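No paired analysis was possible because the mouse numbers are unique to each animal and shared by no 2 groups. In all 7 contrasts of genotype and exercise, 0 members were called in each of the 10 alternatives and in each of the 25 fits without 1 mouse. The median member log2 fold change for exercise ran from 0.02 to 0.04 over the alternatives and from 0.02 to 0.08 without 1 mouse, and that for genotype from -0.10 to 0.01 and from -0.06 to -0.01. Members called for sex were 3 with DESeq2 size factors, 9 with total counts as library sizes, 3 without ribosomal RNA and mitochondrial rows, 1 without the filter, 3 without mouse 15, 3 in mice 7 to 25 alone, 17 in mice 1 to 19 alone, and 3 to 16 without 1 mouse (5 in the fit reported, chosen after seeing the data like all sex alternatives). Shares of all genes called for sex in these fits are not given here, so the counts cannot be set against them. Without the filter the call that was left was *Rpl3l*. Total counts as library sizes moved the median of all genes for sex to -0.13 and made *Rpl3l* miss the call (0.12, adjusted p = 0.17). Without ribosomal RNA and mitochondrial rows the members' share was 1.14% in rested WT, 1.12% in rested mD3AKO, 1.15% in exercised WT and 1.09% in exercised mD3AKO mice, since the total is smaller. Uncalled values changed sign for genotype in *Rps20* (-0.019) and *Rpl38* (-0.027) with total counts, in *Rpl3* (0.12) and *Rpl3l* (0.0079) in males alone and in *Rps20* (-0.043) and *Rpl38* (-0.069) in females alone, for exercise in *Rpl3* (-0.049) in females alone, and for sex in *Rpl39* (0.085) in mice 7 to 25. The median of the members also changed sign for sex (0.0077 in mice 7 to 25 alone) and in single contrasts. Over the alternatives it ran from -0.01 to 0.06 for exercise in WT, from -0.12 to 0.03 for genotype at rest and from -0.04 to 0.05 for the interaction. Without 1 mouse it ran from -0.0021 to 0.06 for exercise in mD3AKO, from -0.06 to 0.03 for genotype at rest, where it was above 0 without mouse 1, and from -0.08 to 0.02 for the interaction. Among the named members, the ranges without 1 mouse that crossed 0 were, for exercise, *Rpl36a* (-0.054 to 0.0045), *Rpl27* (-0.044 to 0.016), *Rpl3* (-0.016 to 0.096) and *Rpl3l* (-0.011 to 0.061), and for genotype, *Rps20* (-0.011 to 0.051), *Rpl38* (-0.029 to 0.038) and *Rpl3l* (-0.046 to 0.022). Of the called genes of other lists, *Ddit4* alone was called in every alternative. *Nolc1*, *Nop58*, *Gnl3*, *Taf1a*, *Rheb*, *Eef1a1* and the others lost the call in females alone, where fewer mice were fitted. With total counts as library sizes, all but *Gnl3*, *Ddit4* and *Ddit4l* lost it. The directions held, and in females alone *Gnl3* (0.32), *Rheb* (0.19) and *Larp4* (0.18) stayed close to their values in all mice. Over the 10 alternatives other values went lower, to 0.15 for *Snhg1*, 0.06 for *Gnl2* and 0.16 for *Zfas1*. *Gnl3* kept the call in 8 of the 10, *Eef1a1* and *Taf1a* in 7, *Larp4* and *Mrps6* in 6, *Gnl2* in 5 and *Sbds* in 4. The cause of these changes was not tested.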
